A study of Rattus norvegicus with 8 samples.

Results

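The mitochondrial carriers of the SLC25 family were examined in left ventricles of late-pregnant rats whose hearts had gone through ischemia, a stop of the blood supply, and then reperfusion. The members are the genes whose symbol in the array's annotation starts with Slc25a and a number, taken from probe sets with exactly 1 symbol; a probe set is the group of short DNA probes that reads a gene on an Affymetrix array. This gave 41 probe sets for 37 genes, of 14497 genes named in this way and 28826 probe sets in all, and each gene was represented by its probe set with the highest mean over all 8 arrays. The RefSeq gene table lists 49 protein-coding genes under such symbols, and the other 12, among them the aspartate/glutamate carriers Slc25a12 and Slc25a13, were not analysed here. The placebo group, 3 arrays, received vehicle at reperfusion. The other group, 5 arrays, received the treatment labelled ILPD, taken here to be the single bolus of 5 mg/kg that the design text abbreviates ITLD and the title calls Intralipid, a lipid emulsion. Ischemia, reperfusion, female sex and late pregnancy were common to both groups, so the comparison asks how the carriers' transcripts differed with the treatment after the same injury. The labels used here give no strain or age and number the replicates without saying that they are separate animals, so the p-values reflect only how these arrays scatter, and part of that scatter may be technical.

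SLC25 proteins sit in the inner mitochondrial membrane, with a few in other membranes, and exchange nucleotides, phosphate, organic acids, amino acids and cofactors between the cytosol and the matrix. In heart muscle the ADP/ATP carrier and the phosphate carrier feed the ATP synthase and export the ATP that contraction uses. The oxoglutarate carrier takes part in the malate-aspartate shuttle, which brings reducing equivalents from glycolysis into the matrix, and the carnitine/acylcarnitine carrier brings in fatty acids for oxidation.

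Few members passed the test, and the shift of the family as a whole was not tested. Of 37 members, 1 rose (Slc25a16) and 1 fell (Slc25a39) at an adjusted p under 0.05, in limma's test on log2 values, adjusted over all 28826 probe sets by Benjamini-Hochberg. That is 2.7% of the members in each direction. By the same rule 1.96% of all probe sets were higher and 0.857% lower in ILPD, and of the 14497 named genes 2.29% and 1.17%, so these member counts are close to the background. At an adjusted p under 0.10, in either direction, 6 members passed (16.2%), against 6.09% of all probe sets and 7.38% of named genes. The median difference over the members was -0.02 on the log2 scale, against 0.02 over all probe sets, and the differences ran from -0.34 to 0.41. Below 0 were 21 members (56.8%), against 41.5% of all probe sets and 45.0% of named genes. At an unadjusted p under 0.05, 7 members were higher and 8 lower, that is 18.9% and 21.6%, where all probe sets gave 11.3% and 7.01% and named genes 11.5% and 9.39%. The ILPD and placebo arrays did not overlap for 4 members that were higher and 4 that were lower, 10.8% in each direction, where 7.95% and 4.42% of all probe sets and 8.19% and 5.83% of named genes did so.

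**Figure D1:**
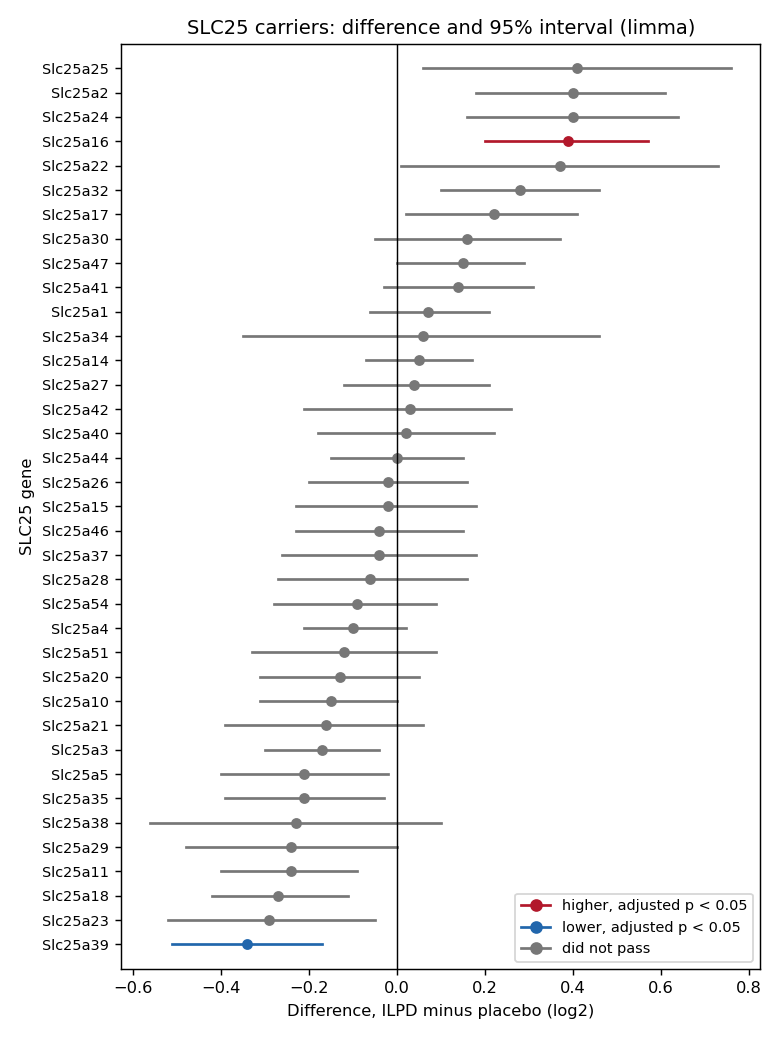
Difference in log2 value, ILPD minus placebo, for the 37 SLC25 genes (points) with the 95% interval from limma (lines), ordered by size. Slc25a16 at 0.39 and Slc25a39 at -0.34 are the members that passed an adjusted p of 0.05, and most other intervals reach or lie near 0.

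Pairwise correlations of the arrays over all probe sets were 0.991 to 0.995 within groups and 0.989 to 0.993 between them. Array medians were 7.08 to 7.14 in placebo and 7.16 to 7.20 in ILPD, so every ILPD median lay above every placebo median. The small number of arrays limits the precision. The cardiomyocyte markers, 10 of 10 measured, had list means of 13.40 to 13.44 in placebo and 13.22 to 13.38 in ILPD, so the labelled tissue's defining genes were bright in every array. Probe sets with high values were lower in ILPD in general, with a median difference of -0.14 above a mean log2 value of 12 and of 0.06 between 7 and 8. In tissue of mixed cells, fewer cells of a type and less RNA per cell cannot be told apart. The markers of neutrophils had list means of 7.34 to 7.95 in placebo and 7.85 to 8.68 in ILPD (1 of 10 passed, Mmp9), those of macrophages 9.05 to 9.40 and 9.34 to 9.72 (1 of 10, Cx3cr1), and those of T and NK cells 6.80 to 6.96 and 7.0 to 7.09 (1 of 8, Klrd1). No marker of the other lists passed in limma. At an unadjusted p under 0.05, 6 of 10 neutrophil, 4 of 10 macrophage and 3 of 8 T and NK cell markers were higher, with differences up to 1.32 (the neutrophil collagenase Mmp8, limma adjusted p = 0.0511). By the same rule 2 of 6 endothelial and 3 of 5 smooth muscle and pericyte markers were higher, and 2 of 10 cardiomyocyte and 1 of 7 fibroblast markers were lower. Over all probe sets 11.3% were higher and 7.01% lower by this rule, and of named genes 11.5% and 9.39%. Of 7 erythroid and 5 adipocyte markers, 0 passed unadjusted in either direction. The part of cell composition in the results on the carriers was not tested.

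Slc25a16, a carrier linked to the transport of coenzyme A and first known as an autoantigen of Graves disease, rose. Its log2 values were 8.88, 8.89 and 8.95 in the placebo arrays and 9.43, 9.43, 9.34, 9.16 and 9.11 in the ILPD arrays (probe set 10829831). Every ILPD array lay above every placebo array, and the placebo arrays were closer together than the ILPD arrays. The means were 8.91 ± 0.04 (SD, n = 3) and 9.29 ± 0.15 (SD, n = 5), a difference of 0.39 (SE 0.08, limma adjusted p = 0.0424), or 1.31-fold. The difference stayed between 0.31 and 0.49 over 15 alternative settings, with an adjusted p from 0.0214 to 0.134. The call was lost when any array other than ILPD array 5 was left out, with an adjusted p of 0.0503 without ILPD array 4 and up to 0.134 without placebo array 2.

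Slc25a39, which brings glutathione into mitochondria and is needed for iron-sulfur proteins there, fell. Its values were 10.78, 10.69 and 10.79 in placebo and 10.57, 10.53, 10.37, 10.29 and 10.30 in ILPD (probe set 10747836). The groups did not overlap, and the highest ILPD array was 10.57 against a lowest placebo array of 10.69. The means were 10.75 ± 0.05 (SD, n = 3) and 10.41 ± 0.13 (SD, n = 5), so that it fell by 0.34 (SE 0.08, limma adjusted p = 0.0467), to 78.9% of the placebo level. The difference was -0.24 after cyclic loess normalization, which evens out shifts that depend on brightness, and its call was lost there (adjusted p = 0.0886). It was also lost when any array other than ILPD array 1 was left out, with an adjusted p of 0.061 to 0.139. RefSeq lists 8 pseudogenes of Slc25a39, and signal from such copies cannot be separated from that of the gene.

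The stretches of 250 bases upstream of the annotated starts of these genes and of the ADP/ATP carrier genes Slc25a4 and Slc25a5 are shown as RefSeq gives them (assembly GRCr8), since these are the members that passed the test and the family's best known members in muscle. Capitals mark 3 letter motifs searched on both strands: GGGCGG (the GC box, read as CCGCCC on the other strand), CCAAT and TATAA, with no overlap between different motifs in these windows. The window of Slc25a16 lies on chr20:25715008-25715257 (minus strand), that of Slc25a39 on chr10:87866974-87867223 (minus strand), that of Slc25a4 on chr16:52805271-52805520 (plus strand) and that of Slc25a5 on chrX:120897366-120897615 (plus strand).
Slc25a16: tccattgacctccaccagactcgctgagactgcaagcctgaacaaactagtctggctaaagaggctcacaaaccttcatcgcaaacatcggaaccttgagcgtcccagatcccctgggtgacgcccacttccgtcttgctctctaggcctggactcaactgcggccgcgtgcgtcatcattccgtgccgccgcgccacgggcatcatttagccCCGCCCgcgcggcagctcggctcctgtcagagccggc
Slc25a39: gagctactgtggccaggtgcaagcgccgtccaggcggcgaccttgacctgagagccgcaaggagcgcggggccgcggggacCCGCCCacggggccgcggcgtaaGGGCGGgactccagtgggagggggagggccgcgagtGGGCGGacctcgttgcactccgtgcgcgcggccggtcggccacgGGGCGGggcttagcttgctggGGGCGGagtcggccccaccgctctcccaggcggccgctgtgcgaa
Slc25a4: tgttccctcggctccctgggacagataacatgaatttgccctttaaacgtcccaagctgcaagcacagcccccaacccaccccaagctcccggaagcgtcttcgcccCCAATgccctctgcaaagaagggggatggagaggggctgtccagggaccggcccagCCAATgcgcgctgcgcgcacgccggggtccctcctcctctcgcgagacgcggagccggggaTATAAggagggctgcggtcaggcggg
Slc25a5: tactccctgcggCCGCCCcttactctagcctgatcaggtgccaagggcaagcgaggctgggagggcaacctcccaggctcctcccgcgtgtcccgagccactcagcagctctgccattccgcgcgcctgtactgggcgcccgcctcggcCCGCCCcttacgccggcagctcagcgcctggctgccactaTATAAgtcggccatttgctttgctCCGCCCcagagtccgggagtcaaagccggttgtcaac

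In these windows the Slc25a39 sequence, of which 76.4% is G or C, holds the GC box letters at 5 places, and that of Slc25a16, with 61.6%, holds them at 1 place. The ADP/ATP carrier windows hold TATAA upstream of the start, at bases 26 to 22 before it for Slc25a4 and 61 to 57 for Slc25a5. Windows were found for 32 of the 37 members. GGGCGG occurred in 20 of them (62.5%) against 30.5% of 33469 windows of the same length, CCAAT in 18 (56.2%) against 34.0%, and TATAA in 4 (12.5%) against 24.0%. The 33469 windows were not limited to protein-coding genes or to genes named on the array, so they are not a matched set. The core motif of NRF1, a factor known for mitochondrial genes, occurred in 0 member windows and 3.75% of all, and the heat shock element in 0 and 0.663%. The letters AAGGTCA, bound by estrogen-related receptors, occurred in 1 member window, that of Slc25a34, and in 3.99% of all. These matches describe letters only; the median share of G and C was 58.2% in member windows and 51.2% in all.

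Among the carriers of adenine nucleotides and coenzyme A, 9 of 11 listed genes were measured, of which Slc25a16 rose and none fell in limma's test. At an unadjusted p under 0.05, 4 were higher and 2 lower, where all probe sets gave 11.3% and 7.01%. Slc25a4, the ADP/ATP carrier of heart and skeletal muscle, read 13.91, 13.82 and 13.93 in placebo and 13.82, 13.79, 13.78, 13.74 and 13.82 in ILPD. These values were close together in all 8 arrays, and the groups overlapped at 13.82. The difference was -0.10 with a 95% interval of -0.21 to 0.02 (limma adjusted p = 0.372), and it turned to 0.07 after quantile normalization and 0.11 after cyclic loess. RefSeq lists 1 pseudogene of Slc25a4, which the probes may also read. Slc25a5, the ADP/ATP carrier of many dividing cells, read 13.02, 12.80 and 13.15 in placebo and 12.84, 12.79, 12.64, 12.75 and 12.89 in ILPD. The second placebo array lay within the ILPD range. The difference was -0.21 (interval -0.40 to -0.02, adjusted p = 0.235) and -0.03 after cyclic loess; RefSeq lists 9 pseudogenes of Slc25a5, which the probes may also read.

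The carriers that exchange ATP-Mg for phosphate, and so change the matrix pool of adenine nucleotides when cytosolic calcium rises, differed in opposite directions, none past the threshold. Slc25a25 had the highest difference of all members, 0.41 (SE 0.16, limma adjusted p = 0.209), with placebo values of 7.12, 7.46 and 7.81 and ILPD values of 8.14, 7.87, 8.02, 7.68 and 7.65. Its placebo arrays were the most spread of all members (SD 0.35), and the highest of them lay within the ILPD range. Slc25a24 read 8.0, 7.61 and 7.73 in placebo and 8.04, 8.26, 8.07, 8.11 and 8.42 in ILPD, without overlap, a difference of 0.40 (SE 0.11, adjusted p = 0.084). Its other probe set gave 0.21 (adjusted p = 0.233), with the same sign and an overlap between groups. Slc25a23 read 10.45, 10.67 and 10.39 in placebo and 10.04, 10.17, 10.18, 10.18 and 10.52 in ILPD. ILPD array 5 stood above the other ILPD arrays and within the placebo range, and the difference was -0.29 (SE 0.11, adjusted p = 0.188; 0.043 without that array). The other probe set of Slc25a23 gave -0.15 (adjusted p = 0.381). Slc25a41, a related carrier without the calcium-binding part, differed by 0.14, Slc25a42, which exchanges coenzyme A for adenine nucleotides, by 0.03, and Slc25a17, which carries cofactors in peroxisomes, by 0.22; none of these 3 passed (adjusted p from 0.22 to 0.921).

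**Figure D2:**
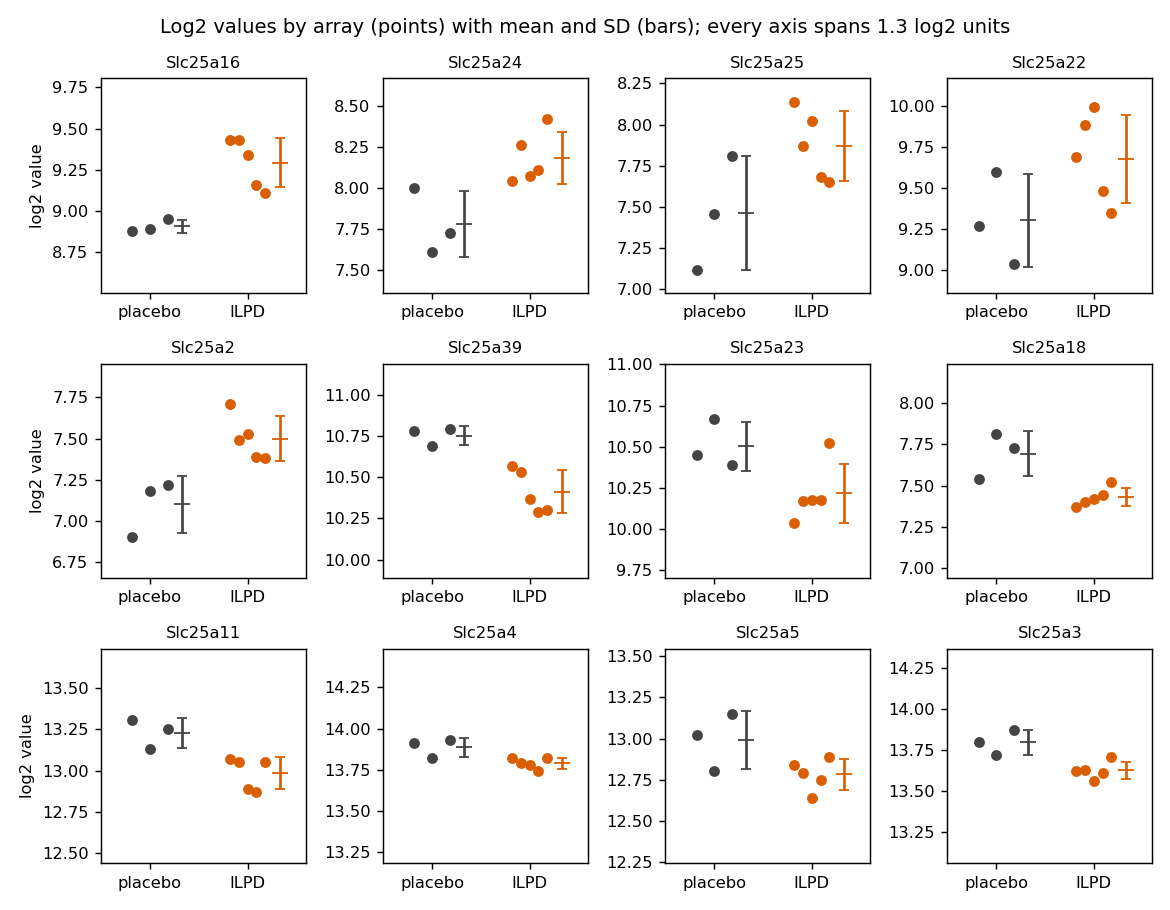
Log2 values of 12 SLC25 genes in each array: points are the 3 placebo and 5 ILPD arrays, horizontal marks the means and vertical bars the SD, and every vertical axis spans the same length of 1.3 log2 units. Slc25a16 rises from 8.91 to 9.29 and Slc25a39 falls from 10.75 to 10.41 without overlap, while the groups of Slc25a4, Slc25a5 and Slc25a25 overlap.

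The carriers of phosphate and of di- and tricarboxylates were mostly a little lower in ILPD, with 4 of 5 below 0 and a median of -0.16. None passed in limma. At an unadjusted p under 0.05, 2 were lower and none higher, where 7.01% of all probe sets were lower and 11.3% higher. Slc25a11, the oxoglutarate/malate carrier, read 13.31, 13.13 and 13.25 in placebo and 13.07, 13.05, 12.89, 12.87 and 13.05 in ILPD. All ILPD arrays lay below all placebo arrays, by as little as the gap from 13.07 to 13.13. The difference was -0.24 (SE 0.07, limma adjusted p = 0.0985), and -0.06 after cyclic loess (adjusted p = 0.637). Slc25a3, the phosphate carrier, read 13.80, 13.72 and 13.87 in placebo and 13.62, 13.63, 13.56, 13.61 and 13.71 in ILPD. The groups did not overlap, though the highest ILPD and the lowest placebo array were nearly equal. The difference was -0.17 (interval -0.30 to -0.04, adjusted p = 0.147), -0.01 after quantile normalization and 0.03 after cyclic loess. RefSeq lists 2 pseudogenes of Slc25a3, which the probes may also read. Of the rest, Slc25a10, the dicarboxylate carrier, differed by -0.15, Slc25a21, which carries oxoadipate from lysine breakdown, by -0.16, and Slc25a1, the citrate carrier, by 0.07, with 0.05 in its other probe set; none passed (adjusted p from 0.278 to 0.585).

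The members with the highest values were below 0, as were bright probe sets in general. For the 4 members with a mean log2 value above 12 (Slc25a3, Slc25a4, Slc25a5 and Slc25a11), the median difference was -0.19, against -0.14 over the 619 probe sets in that range. After cyclic loess both were near 0, at 0.00 and 0.03. For the 3 members between 10 and 12 (Slc25a20, Slc25a23 and Slc25a39) the median was -0.29, against -0.12 over 2537 probe sets, and after cyclic loess -0.20 against -0.01. Across the 37 members, Spearman's rho between mean value and difference was -0.30 as deposited and 0.12 after cyclic loess, against -0.19 and 0.00 across all probe sets; genes share the same 8 arrays and are not independent replicates. The cardiomyocyte markers, also bright, had a median difference of -0.13, with 10 of 10 below 0; what part the heart muscle cells, or the normalization, had in the lower carriers was not tested.

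**Figure D3:**
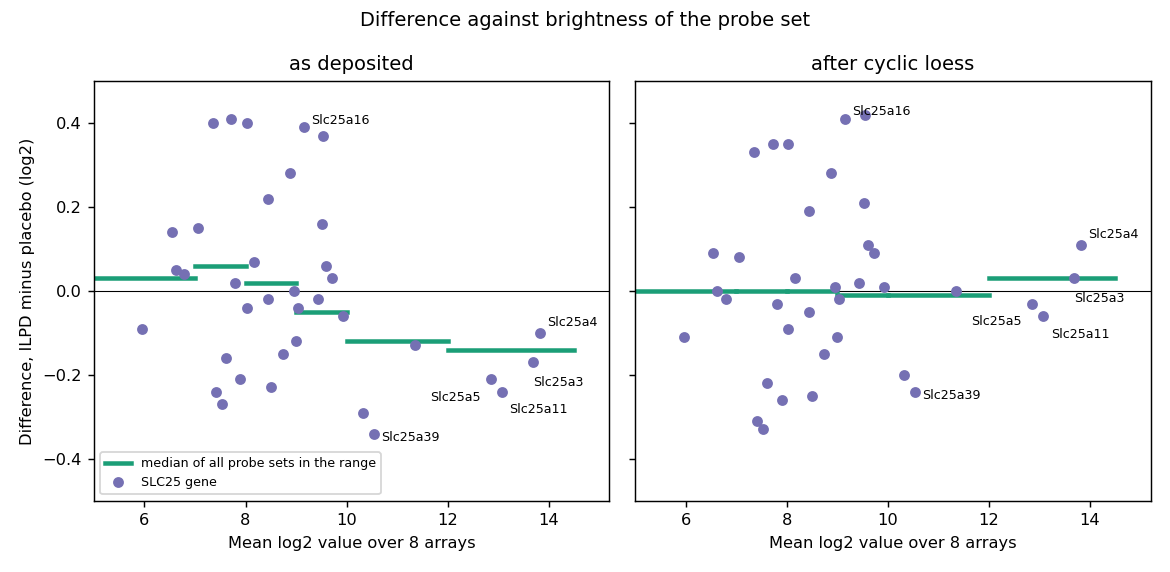
Difference in log2 value, ILPD minus placebo, against the mean log2 value over 8 arrays, for the 37 SLC25 genes (points), as deposited and after cyclic loess normalization; green lines are medians of all probe sets in a range of mean values. As deposited, Slc25a3, Slc25a4, Slc25a5 and Slc25a11 lie below 0 with the other bright probe sets, and after cyclic loess they lie between -0.06 and 0.11.

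Carriers of amino acids and acylcarnitines differed in both directions, and none of the 8 measured passed in limma. At an unadjusted p under 0.05, 2 were higher and 2 lower, where all probe sets gave 11.3% and 7.01%. The glutamate carriers had opposite signs. Slc25a22, the first of them, read 9.27, 9.60 and 9.04 in placebo and 9.69, 9.88, 9.99, 9.48 and 9.35 in ILPD, with wide spread in both groups and a difference of 0.37 (SE 0.16, adjusted p = 0.255). Slc25a18, the second, read 7.54, 7.81 and 7.73 in placebo and 7.37, 7.40, 7.42, 7.44 and 7.52 in ILPD, without overlap. Its mean of 7.53 was not far above the array medians of 7.08 to 7.20. Its difference was -0.27 (SE 0.07, adjusted p = 0.0732), and it passed in 4 of 15 alternative settings. These were quantile normalization (-0.35, adjusted p = 0.0383), median centring (-0.35, 0.0296), cyclic loess (-0.33, 0.0406) and leaving out placebo array 1 (-0.34, 0.0445). In the others it did not pass, with an adjusted p up to 0.229 without placebo array 2. Whether the differences of Slc25a22 and Slc25a18 differed from each other was not tested.

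Slc25a2, an ornithine carrier, read 6.90, 7.18 and 7.22 in placebo and 7.71, 7.49, 7.53, 7.39 and 7.38 in ILPD, without overlap. Its mean of 7.35 lay near the array medians of 7.08 to 7.20, and no detection call was used. Its difference was 0.40 (SE 0.10, limma adjusted p = 0.0589). The gene passed in 2 of 15 alternative settings, with a limma adjusted p from 0.0404 to 0.186 (0.124 after cyclic loess). Slc25a15, the ornithine carrier of the urea cycle, differed by -0.02 (interval -0.23 to 0.18). Slc25a29, a carrier of basic amino acids, read 7.56, 7.42 and 7.71 in placebo and 7.50, 7.15, 7.18, 7.26 and 7.52 in ILPD, with overlap and a difference of -0.24 (adjusted p = 0.268). Slc25a38, which brings in glycine for heme synthesis, differed by -0.23 with a wide interval of -0.56 to 0.10, and Slc25a44, a carrier of branched-chain amino acids, by 0.00 (interval -0.15 to 0.15). Slc25a20, the carnitine/acylcarnitine carrier, read 11.49, 11.37 and 11.41 in placebo and 11.44, 11.35, 11.33, 11.07 and 11.29 in ILPD. ILPD array 4 was the lowest and the others lay near the placebo range; the difference was -0.13 (interval -0.31 to 0.05, adjusted p = 0.456) and 0.00 after quantile normalization and cyclic loess.

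Among the carriers of cofactors, glutathione and iron, 7 of 10 listed genes were measured and Slc25a39 alone passed in limma. Slc25a40, the close relative of Slc25a39, differed by 0.02 (interval -0.18 to 0.22), and whether the 2 differed from each other was not tested. Slc25a37, the mitoferrin known from red cell precursors, read 8.01, 8.04 and 8.13 in placebo and 7.82, 8.10, 7.84, 8.25 and 8.08 in ILPD. The ILPD arrays fell on both sides of the placebo arrays (difference -0.04, interval -0.26 to 0.18). Slc25a28, the mitoferrin of most other tissues, read 9.81, 10.18 and 9.90 in placebo and 9.87, 9.95, 10.10, 9.79 and 9.81 in ILPD, with complete overlap (-0.06, interval -0.27 to 0.16). The erythroid markers, 7 of 9 measured, had list means of 6.93 to 7.29 in placebo and 6.93 to 7.47 in ILPD, with 4 of 7 above 0 and none past the threshold, beside the values of Slc25a37, Slc25a38 and Slc25a39. Slc25a26, which brings S-adenosylmethionine into mitochondria, read 9.50, 9.34 and 9.50 in placebo and 9.55, 9.50, 9.28, 9.29 and 9.51 in ILPD, over the same range (-0.02, interval -0.20 to 0.16). Slc25a32, a carrier of folate and flavin cofactors, differed by 0.28 (SE 0.08, adjusted p = 0.104), and Slc25a51, the carrier of NAD, by -0.12, with -0.03 in its other probe set.

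The uncoupling protein-like carriers Slc25a14, Slc25a27 and Slc25a30 differed by 0.05, 0.04 and 0.16, and none passed even unadjusted. The remaining members were Slc25a46, an outer membrane protein of mitochondrial dynamics (-0.04), and Slc25a34 (0.06), Slc25a35 (-0.21), Slc25a47 (0.15) and Slc25a54 (-0.09), whose roles are less known; none passed, and Slc25a35 was lower at an unadjusted p of 0.0257, a difference that passed the adjusted threshold without ILPD array 5. Slc25a34 had the largest spread among ILPD arrays of all members, with values of 10.10, 9.92, 9.54, 9.40 and 9.17 (SD 0.38) around placebo values of 9.60, 9.57 and 9.54 (SD 0.03). Of family members under other symbols, 0 of 5 passed in limma and 1 was higher and 1 lower at an unadjusted p under 0.05. Ucp3, the muscle uncoupling protein, had the largest difference of these, 0.72 (interval 0.06 to 1.38, adjusted p = 0.232), with 8.49, 8.34 and 7.47 in placebo and 9.50, 9.16, 8.47, 8.68 and 8.32 in ILPD.

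The machinery and enzymes that work with the carriers were examined in partner lists, 40 measured genes with the family members under other symbols included. Of these, 2 rose and 0 fell in limma's test, where 1.96% of all probe sets rose and 0.857% fell. At an unadjusted p under 0.05, 4 were higher and 12 lower, where all probe sets gave 11.3% and 7.01%. Carrier proteins are made in the cytosol and imported through TOM70, the small TIM chaperones and the TIM22 complex. Of 12 measured genes of that route, 0 passed in limma and 1 was lower at an unadjusted p under 0.05, the pore subunit Tomm40 (-0.31, adjusted p = 0.168); the median was -0.04. The enzymes of the malate-aspartate shuttle, Mdh1, Mdh2, Got1 and Got2, lay at -0.22 to -0.19, close to Slc25a11 (-0.24, and -0.06 after cyclic loess). Of these enzymes 0 of 4 passed, and all 4 were lower at an unadjusted p under 0.05. By that rule 11.3% of all probe sets were higher and 7.01% lower, and of named genes 11.5% and 9.39%. All 4 have mean log2 values above 12, where the median difference over all probe sets was -0.14. Of 5 genes of the carnitine system 0 passed, with 1 higher and 2 lower unadjusted; the outer membrane enzyme Cpt1a had the largest difference (0.47, adjusted p = 0.137).

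Of 14 measured transporters of the inner and outer membranes outside the family, 2 rose and 0 fell. Both that rose were sideroflexins, a separate family of mitochondrial transporters. At an unadjusted p under 0.05, 2 were higher and 4 lower, where all probe sets gave 11.3% and 7.01%. The 4 lower were Vdac1 (-0.32, limma adjusted p = 0.0507), Vdac2 (-0.20), Vdac3 (-0.21) and Abcb8 (-0.23). The Vdac genes had mean log2 values of 12.08 to 13.20, in the bright range that was lower in ILPD in general. Sfxn2 read 7.23, 7.43 and 7.52 in placebo and 7.94, 8.08, 8.18, 8.20 and 8.19 in ILPD. The ILPD arrays lay well above the placebo arrays, and the difference was 0.73 (SE 0.08, limma adjusted p = 0.00343), a call that held in 15 of 15 alternatives. Sfxn3, which like Sfxn1 carries serine, read 8.77, 8.73 and 8.82 in placebo and 9.18, 9.41, 9.19, 9.42 and 9.16 in ILPD, also without overlap. It rose by 0.50 (SE 0.08, adjusted p = 0.012), a call held in 13 of 15 alternatives and lost without placebo array 2 (adjusted p = 0.0626) and with the replicate number as a block (0.0544). Sfxn1, Sfxn4 and Sfxn5 differed by -0.05, -0.01 and -0.03 and did not pass.

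The call of a fall or a rise in this family depended on the scaling. Where each array was centred on its median, 4 members fell (Slc25a3, Slc25a11, Slc25a18 and Slc25a39) and 0 rose, while 26.8% of all calls were higher, against 69.5% as deposited; this setting lowers every difference by nearly the same amount, and the median over all probe sets went from 0.02 to -0.06. After cyclic loess Slc25a16 rose and Slc25a18 fell. The directions of Slc25a3 and Slc25a4 turned under at least 1 scaling, as given above.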

How the data were processed

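RNA of 8 rat left ventricle samples was labelled with biotin and hybridised to Affymetrix arrays, per the labels' protocols. The deposited log2 values ran from 4.77 to 14.77 and were used as given; that the scale is log2 was settled from this range. The authors' summarisation and normalization are not given in the sources used here, beyond R 2.14.2 in the submitters' processing notes. Gene symbols came from the platform annotation; 15209 probe sets had 1 symbol, 306 several and 13311 none here, and all 41 member probe sets matched a RefSeq table of assembly GRCr8 by gene ID. No detection call was used, so no probe set was called undetected.

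All 28826 probe sets were fitted with limma 3.58.1 in R 4.3.3 (lmFit, eBayes, no covariates), two-sided, with Benjamini-Hochberg adjustment and a threshold of 0.05; an interval is a 95% interval from that fit. The fit was tested on simulated data drawn independently with its own fitted spread. Those data held no shift common to a group and none that depends on brightness, so the simulation cannot speak to such shifts. Alternatives were an intensity trend with robust prior, 3 further normalizations, leaving out the dimmest 40% of probe sets, array weights, a replicate block, averaging several probe sets of a gene, a threshold of 0.10 and leaving out each array. Per-array values are printed for members that passed, the 5 highest and 5 lowest differences, the 4 with the highest mean and a short set of well-known carriers. Partner lists name what passed and the largest difference, with some genes that did not pass. Members and lists were chosen with earlier results of these data known.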

Additional observations from a re-analysis of the deposited data

How the results depend on the processing

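The count of SLC25 members that rose, 1 as deposited, was 0 with the intensity trend and robust prior and with median centring, 2 without the dimmest 40% of probe sets and with array weights, 3 at a threshold of 0.10, and 0 to 1 over the 8 fits that leave out an array. The count that fell, also 1, was 0 with the intensity trend, 4 with median centring, 3 at 0.10 and 0 to 2 without an array. After quantile normalization and cyclic loess the member that fell was Slc25a18, not Slc25a39. Over all probe sets, 564 rose and 247 fell; these were 302 and 182 after quantile normalization, 291 and 793 with median centring, 1159 and 597 at 0.10, and 116 to 600 and 56 to 375 without an array, with the lowest counts without placebo array 2. Partner genes that rose numbered 1 to 2 without an array, and those that fell, 0 as deposited, numbered 4 with median centring, 1 without dim probe sets, 1 with array weights, 2 at 0.10 and 0 to 1 without an array. The members' median moved to -0.10 with median centring and ran from -0.05 to 0.01 without an array.

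Small differences that did not pass changed sign in some settings. Median centring lowers every difference by nearly the same amount (the median over all probe sets went from 0.02 to -0.06), so small positive values turn by construction; these were Slc25a1 (-0.01), Slc25a34 (-0.02), Slc25a14 and Slc25a27 (-0.03), and Slc25a40 and Slc25a42 (-0.05). With quantile normalization they were Slc25a14 (-0.01), Slc25a27 (-0.02), Slc25a40 (-0.05) and Slc25a4 (0.07). With cyclic loess they were Slc25a14 (0.00), Slc25a27 (-0.02), Slc25a40 (-0.03), Slc25a44 and Slc25a28 (0.01), Slc25a26 (0.02), Slc25a3 (0.03) and Slc25a4 (0.11). Without single arrays, ranges that crossed 0 were -0.06 to 0.17 for Slc25a34, -0.16 to 0.00 for Slc25a54, -0.14 to 0.05 for Slc25a28, -0.13 to 0.05 for Slc25a15, -0.10 to 0.01 for Slc25a37, -0.08 to 0.04 for Slc25a46, -0.07 to 0.02 for Slc25a26, -0.07 to 0.11 for Slc25a42, -0.05 to 0.10 for Slc25a27, -0.04 to 0.11 for Slc25a40 and -0.03 to 0.04 for Slc25a44. The cause was not tested.

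With the replicate number as a block, 1 member rose, 0 fell, and 337 and 122 probe sets rose and fell; Slc25a28 and Slc25a15 turned to 0.01. ILPD arrays 4 and 5 have no placebo partner and add nothing to that difference. Deviations of same-numbered arrays correlated at 0.22, -0.064 and -0.098, and those of differently numbered arrays at -0.17 to 0.25. With so few arrays these values cannot decide whether the numbers pair the samples.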
